A study of Homo sapiens with 6 samples.

Results

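The 10 genes described here encode the receptor chains for interleukin-4 (IL-4), interleukin-13 (IL-13) and interleukin-10 (IL-10), and the STAT and SOCS proteins that act behind them. They were measured by RNA sequencing in THP-1 cells, a line grown from a human acute monocytic leukaemia. IL10RA, IL10RB, IL4R, IL13RA1, IL2RG, STAT6, STAT3, SOCS1, SOCS3 and CISH were all found, 10 of the 17042 genes in the table, and all 10 passed the filter on low counts that left 13405 genes for testing. The list was chosen by function, but from earlier results of these same libraries, where the low IL10RA count in knockdown had been seen. IL10RA is therefore described by its values with no test. For the other 9 the p-values are adjusted over all genes tested.

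There were 3 knockdown libraries, from cells in which the long noncoding RNA RP11-184M15.1 was targeted with small interfering RNA (siRNA), and 3 control libraries. The labels give the control cells as WT and the others as RP11-184M15.1 knockdown. All cells were first given PMA, a phorbol ester that turns THP-1 monocytes into macrophages, at 100 ng/mL for 24 hours, and then IL-4 at 20 ng/mL for another 24 hours. Because both groups had IL-4, the comparison asks what the knockdown changes in IL-4-treated macrophages, and it holds no cells without IL-4. The labels do not say what siRNA, if any, the control cells received, nor whether the replicates were separate cultures, so a p-value here is read only against the variation among the 6 libraries, and that variation may be technical. The level of RP11-184M15.1 was not analysed here, so the knockdown itself was not checked. Library totals ran from 10450043 to 14181343 counts. Of 8 macrophage markers all were measured, with a summed level of 3825 to 3961 CPM (counts scaled to the library size) in knockdown and 3913 to 4086 CPM in control libraries. Of these, CD14, a co-receptor for bacterial lipopolysaccharide, was higher (log2 fold change 0.34), and LYZ, lysozyme, was lower (-0.40), past the threshold used below. Of 5 T cell markers 1 was measured, TRAC, at 7.16 to 8.02 CPM in knockdown and 4.63 to 5.68 CPM in control libraries. The others, CD3D, CD3E, CD3G and CD2, were not among the 17042 genes. The 4 B cell markers measured summed to 5.99 to 7.61 CPM in knockdown and 5.86 to 6.62 CPM in control libraries. Mitochondrially encoded mRNA took 2.02% to 2.10% of the counts in knockdown and 1.88% to 2.54% in control libraries.

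IL-4 binds IL4R, which pairs either with IL2RG, the common gamma chain shared with other interleukin receptors, or with IL13RA1, a chain that also lets the complex bind IL-13. Janus kinases bound to these chains then phosphorylate STAT6, the transcription factor behind most of the IL-4 response of macrophages, including the chemokines CCL17 and CCL22. IL-10 binds IL10RA, which joins IL10RB and signals through JAK1, TYK2 and STAT3 to damp inflammatory genes. SOCS1, SOCS3 and CISH are made in response to STAT activation and restrain signalling from cytokine receptors, though not always from the one that induced them.

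In knockdown IL10RA, the ligand-binding chain for IL-10, stood below its control level, with a change of -25.0%, while none of the other 9 genes passed the threshold of an adjusted p under 0.05. In the knockdown libraries it stood at 642, 641 and 636 CPM, against 823, 867 and 872 CPM in the control libraries. Every knockdown library lay below every control library, with a gap of 180 CPM between the nearest values. The knockdown mean was 640 ± 3.16 CPM and the control mean 854 ± 27.1 CPM (SD, n = 3 each). On the log2 scale the change was -0.42 ± 0.04 (SE). The 3 knockdown values differed from each other by little: their coefficient of variation was 0.494%, against 3.17% in controls, and counting alone gives up to 1.14% at the depth of IL10RA, which had 7751 to 9143 counts in knockdown and 8706 to 10350 counts in control libraries. Over all genes compared, pairs of knockdown libraries also differed less (chi-square per degree of freedom 1.90 to 2.28) than pairs of control libraries (2.79 to 6.79). Because these are bulk samples, fewer cells that express a gene and less of its RNA in each cell cannot be told apart. IL10RA (ENSG00000110324.10) lies on chromosome 11, 117986348 to 118003037, plus strand, in GENCODE 29 on GRCh38, and overlaps no other annotated gene.

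IL10RB, the second chain of the IL-10 receptor, is also part of the receptors for IL-22 and the lambda interferons. It was measured at 227, 230 and 220 CPM in knockdown and at 222, 210 and 211 CPM in control libraries. These ranges overlap, and the log2 fold change of 0.08 ± 0.04 (SE) was not past the threshold (edgeR quasi-likelihood adjusted p = 0.46). Its 95% interval ran from -1.27% to 12.5%, so a change of the size seen for IL10RA lies outside it. IL10RB lies on chromosome 21, 33266358 to 33310187, plus strand, and overlaps AP000295.1, a gene on the same strand with at most 18 counts in a library, against at least 2189 for IL10RB.

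The ratio of IL10RA to IL10RB counts, which does not depend on scaling between libraries, was lower in every knockdown library. It was 2.83, 2.79 and 2.89 in knockdown libraries and 3.71, 4.12 and 4.14 in control libraries. The knockdown mean came to 71.1% of the control mean. Since IL10RA was chosen with its low knockdown count known, this ratio is a description and adds no separate support. Per kb of the longest principal transcript, IL10RA stood at 1.51 times IL10RB in knockdown and at 2.12 times IL10RB in control libraries. IL10RA thus remained the more abundant of the pair by this scale in both groups.

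**Figure D1:**
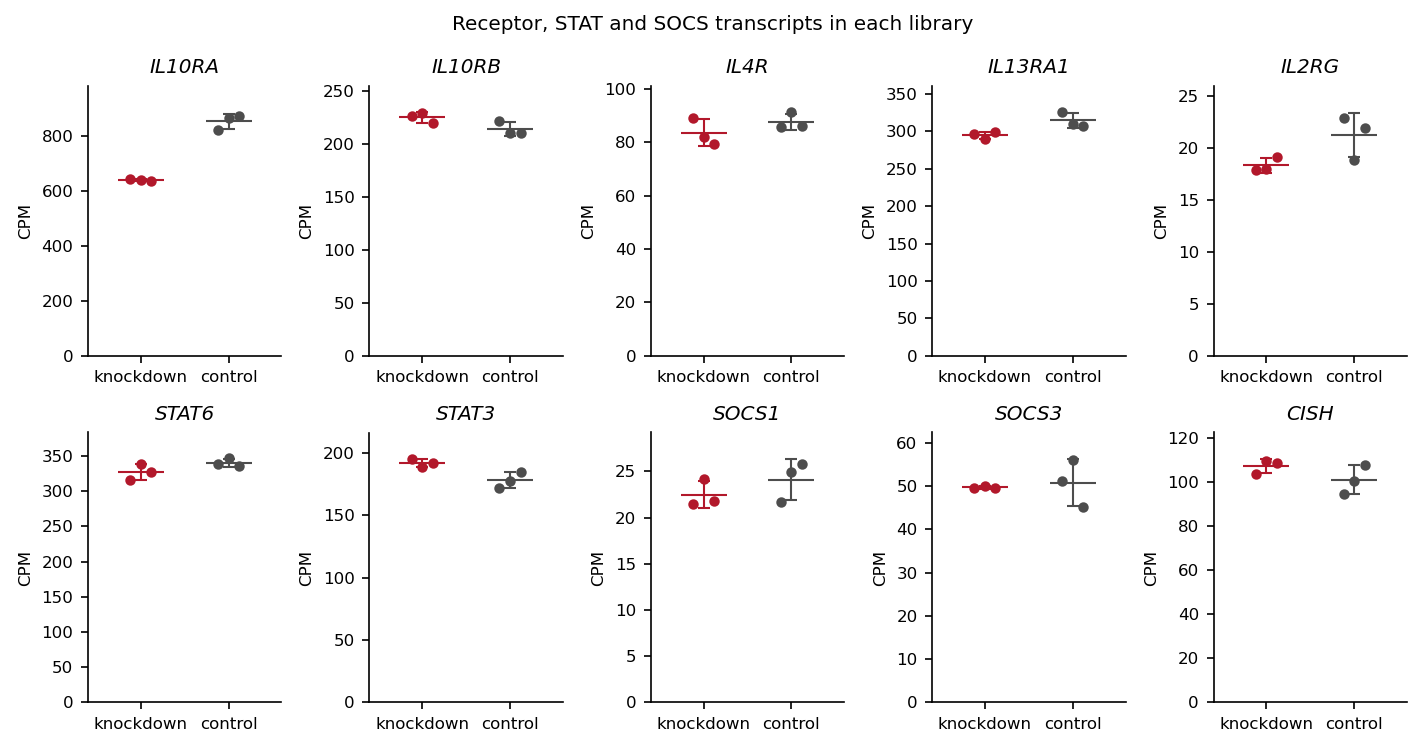
Level of each of the 10 genes in CPM (vertical axes, each from 0) in 3 knockdown libraries (red, left) and 3 control libraries (grey, right); points are libraries, the horizontal bar is the mean and the whiskers 1 SD each way. IL10RA is the gene whose groups lie far apart, at 636 to 642 CPM in knockdown and 823 to 872 CPM in control libraries.

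Among the 9 other genes, 0 were called by edgeR at an adjusted p under 0.05, against 379 of 13405 genes tested (2.83%). The 379 fell to 194, 139 and 156 without knockdown replicate 1, 2 or 3 and to 165 without control replicate 2. The count of 0 was also had from DESeq2 and from limma-voom. At an unadjusted p under 0.05 there was 1 above its controls (STAT3), against 6.89% of all genes tested, and there were 2 below (IL2RG and IL13RA1), against 8.21%. By DESeq2 1 of the 9 had an unadjusted p under 0.05, and by limma-voom 3. In 2 of the 9 (STAT3 and IL13RA1) the groups did not overlap, against 20% of all genes. The median absolute log2 fold change was 0.09 for the 9 and 0.09 over all genes tested. Since the list was proposed with these libraries' results known, nothing is read from these counts.

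The chains of the IL-4 receptor had log2 fold changes of -0.21 to -0.07, none past the threshold. IL4R, the chain that binds IL-4, was measured at 89.2, 82.1 and 79.3 CPM in knockdown and at 85.7, 91.2 and 85.9 CPM in control libraries. The groups overlap, and the log2 fold change of -0.07 ± 0.06 (SE) had an adjusted p of 0.623. Its 95% interval ran from -12.4% to 3.52%. IL4R lies on chromosome 16, 27313668 to 27364778, plus strand, with the antisense gene AC106739.1 on the other strand.

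IL13RA1, which completes the receptor form that also binds IL-13, was at 296, 290 and 299 CPM in knockdown and at 326, 310 and 307 CPM in control libraries. All knockdown values lay below all control values, by 8.74 CPM at the nearest point. The log2 fold change was -0.09 ± 0.04 (SE), with an adjusted p of 0.325 and a 95% interval from -0.18 to 0.00 (log2), its upper end just below 0. IL13RA1 lies on chromosome X, 118727572 to 118794539, plus strand, and overlaps the processed pseudogene AL391280.1, which had 17 to 18 counts in knockdown and 10 to 15 in control libraries.

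IL2RG, the common gamma chain, was the least abundant receptor chain, at 17.9, 18.0 and 19.1 CPM in knockdown and 22.9, 18.8 and 21.9 CPM in control libraries. The lowest control value falls inside the knockdown range. Its log2 fold change of -0.21 ± 0.09 (SE) was the most negative of the 9, but the adjusted p was 0.3, and the interval was wide, from -24.5% to -0.711%. With 221 to 256 counts in knockdown and 225 to 242 in control libraries, counting alone gives a coefficient of variation of up to 6.73%. TRAC, the only T cell marker measured, was higher in knockdown (log2 fold change 0.58, edgeR adjusted p = 0.0409). The part of TRAC in the IL2RG values was not tested. IL2RG lies on chromosome X, 71107404 to 71112108, minus strand, and AL590764.2 overlaps it on the same strand, so its counts carry that uncertainty.

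Ratios among the IL-4 receptor chains overlapped between the groups. The ratio of IL4R to IL13RA1 counts was 0.301, 0.283 and 0.266 in knockdown and 0.263, 0.294 and 0.279 in control libraries. IL2RG to IL13RA1 was 0.0605, 0.0620 and 0.0640 in knockdown and 0.0702, 0.0608 and 0.0714 in control libraries. Per kb, IL13RA1 stood at 6.11 times IL2RG in knockdown and at 5.63 times IL2RG in control libraries. With the union of all annotated exons as the length these were 10.2 times in knockdown and 9.35 times in control libraries, so the size of this ratio depends on the length used. JAK3, the kinase that binds IL2RG, had 1, 4 and 3 counts in knockdown and 0, 3 and 2 counts in control libraries, at or near the floor of 3 counts, and was too low to test.

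**Figure D2:**
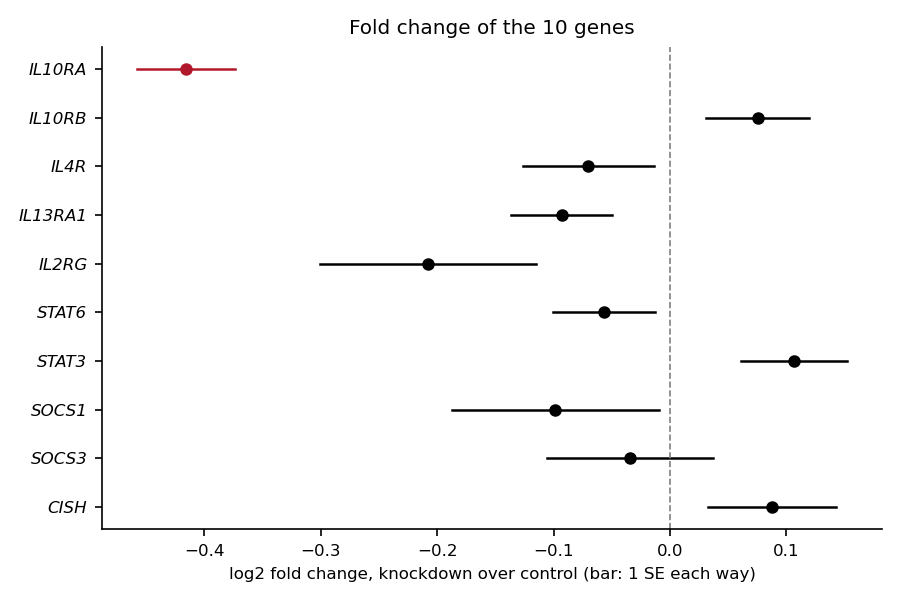
Log2 fold change of each of the 10 genes, knockdown over control (horizontal axis), with bars of 1 SE each way, from edgeR over all genes. IL10RA (red), which was chosen with this value known, lies at -0.42; the other 9 lie between -0.21 and 0.11.

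Neither STAT passed the threshold, and their log2 fold changes had opposite signs. STAT6, which carries the IL-4 signal, was at 316, 339 and 327 CPM in knockdown and 339, 347 and 335 CPM in control libraries. These ranges overlap (log2 fold change -0.06 ± 0.04 SE, adjusted p = 0.606, interval from -9.88% to 2.55%). STAT6 lies on chromosome 12, 57095408 to 57132139, minus strand. NAB2 (571 to 712 counts in knockdown, 404 to 495 in control libraries) and LRP1 (4365 to 5485 counts in knockdown, 3457 to 4595 in control libraries) overlap it on the opposite strand, and whether counting kept to the gene's strand is unknown, so shared reads are possible there and at the other overlaps.

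STAT3, which carries the IL-10 signal, was at 195, 188 and 191 CPM in knockdown and at 172, 177 and 185 CPM in control libraries. Each knockdown value was above each control value, by 3.61 CPM at the nearest point. With a log2 fold change of 0.11 ± 0.05 (SE) it had the smallest adjusted p of the 9, 0.272, and a log2 interval from 0.01 to 0.20. STAT3 lies on chromosome 17, 42313324 to 42388568, minus strand, and overlaps no other annotated gene. The ratio of STAT3 to STAT6 counts was 0.619, 0.555 and 0.586 in knockdown, above the 0.508, 0.511 and 0.551 of the control libraries. The highest control ratio and the lowest knockdown ratio differ by less than the SD of either group.

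Of the SOCS proteins, which are themselves induced by STATs, none was past the threshold. SOCS1, an inhibitor of Janus kinases, was at 21.5, 24.1 and 21.8 CPM in knockdown and 21.6, 24.9 and 25.8 CPM in control libraries, with overlapping ranges. The change was -0.10 ± 0.09 (log2, SE; adjusted p = 0.673, interval from -18.1% to 6.49%). SOCS1 lies on chromosome 16, 11254405 to 11256200, minus strand, and overlaps RMI2 on the opposite strand, which had 19 to 33 counts in knockdown and 23 to 29 in control libraries.

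SOCS3 binds some of the receptors that use STAT3. It was at 49.57, 50.02 and 49.52 CPM in knockdown and at 51.2, 55.9 and 45.2 CPM in control libraries. The knockdown values lie within the control range. Its log2 fold change was -0.03 ± 0.07 (SE; adjusted p = 0.875, interval from -12.1% to 8.48%), and without control replicate 2 it was 0.05, so SOCS3 has no stable direction. It lies on chromosome 17, 78356778 to 78360077, minus strand, with no overlapping gene.

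CISH, an early target of STAT5 and other STATs, was at 104, 110 and 109 CPM in knockdown and at 94.8, 101 and 108 CPM in control libraries, with overlapping ranges. The log2 fold change was 0.09 ± 0.06 (SE; adjusted p = 0.497, interval from -2.03% to 15.2%). CISH lies on chromosome 3, 50606490 to 50611831, minus strand, and shares its locus with MAPKAPK3, a kinase gene on the opposite strand, which had 1583, 1948 and 1575 counts in knockdown and 1814, 2139 and 1890 in control libraries. MAPKAPK3 was lower in knockdown (log2 fold change -0.43, adjusted p = 9.95e-05), while CISH was not called in either direction. Relative to STAT6, CISH counts were 0.329, 0.324 and 0.333 in knockdown and 0.280, 0.290 and 0.322 in control libraries. The lowest knockdown ratio, 0.324, is next to the highest control ratio, 0.322.

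The promoters of CISH and IL10RB are shown because, of the 10 genes, only their windows hold the paired sites that STAT dimers bind. The windows are RefSeq's, on GRCh38.p14, from 250 bases before to 50 bases after the annotated start: chr3:50611725-50612024, minus strand, for CISH and chr21:33266117-33266416, plus strand, for IL10RB. Capitals mark each TTCNNNGAA, a form that STAT3 and STAT5 can bind and which reads alike on both strands.
CISH: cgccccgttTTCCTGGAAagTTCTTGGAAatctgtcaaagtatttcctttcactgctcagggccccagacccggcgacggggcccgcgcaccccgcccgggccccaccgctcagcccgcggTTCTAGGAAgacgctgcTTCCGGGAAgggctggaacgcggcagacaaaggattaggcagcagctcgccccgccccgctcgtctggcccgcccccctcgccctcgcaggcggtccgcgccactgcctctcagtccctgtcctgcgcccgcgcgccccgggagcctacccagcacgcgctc
IL10RB: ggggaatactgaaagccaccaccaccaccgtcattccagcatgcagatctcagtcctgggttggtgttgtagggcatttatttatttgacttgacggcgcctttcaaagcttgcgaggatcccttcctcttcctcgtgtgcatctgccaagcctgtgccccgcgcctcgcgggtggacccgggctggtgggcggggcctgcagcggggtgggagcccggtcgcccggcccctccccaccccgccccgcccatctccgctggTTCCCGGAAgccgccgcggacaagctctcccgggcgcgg
CISH holds 4 of these, starting 241, 230, 129 and 112 bases before the start. IL10RB holds 1, just after its start. Of 35116 promoter windows of 300 bases, 2689 (7.66%) held at least 1 and 7 (0.0199%) held 4 or more. The longer form with 4 bases between TTC and GAA, which STAT6 prefers, was in none of the windows of the 10 genes and in 6.44% of all windows. All 10 genes had a window, but the one for IL10RA lies 3597 bases from the start of its principal GENCODE transcript, and those for SOCS3 lie 410 and 848 bases from theirs, so they are not shown. The search did not cover the principal starts of IL10RA and SOCS3, so the lack of a match says nothing of their promoters. A match in letters is not a bound site. CISH, with 4 matches, and IL10RB, with 1, had log2 fold changes of 0.09 and 0.08, none past the threshold.

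**Figure D3:**
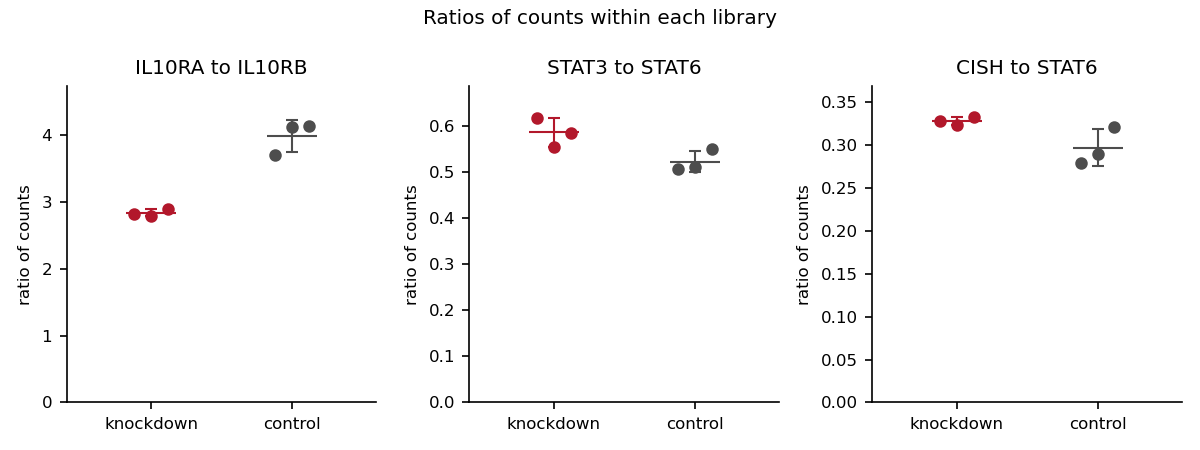
Ratio of the counts of IL10RA to IL10RB, STAT3 to STAT6 and CISH to STAT6 (vertical axes, each from 0) in 3 knockdown libraries (red, left) and 3 control libraries (grey, right); points are libraries, bars the mean and whiskers 1 SD each way. The IL10RA to IL10RB ratio lies between 2.79 and 2.89 in knockdown and between 3.71 and 4.14 in control libraries, while in the other panels the lowest knockdown and the highest control points are near each other.

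Set side by side per kb of the longest principal transcript, the 10 genes kept nearly the same order in both groups. IL10RA led with 173 ± 0.856 CPM per kb in knockdown and 231 ± 7.33 in control libraries. IL10RB followed at 115 ± 2.59 in knockdown and 109 ± 3.30 in control libraries, then STAT6 at 81.1 ± 2.93 in knockdown and 84.4 ± 1.47 in control libraries, and IL13RA1 at 73.0 ± 1.13 in knockdown and 77.9 ± 2.46 in control libraries (each SD, n = 3). CISH and STAT3 came next, at 52.6 and 38.0 CPM per kb in knockdown and 49.5 and 35.3 in control libraries. IL4R was at 22.7 in knockdown and 23.8 in control libraries, and SOCS3 at 18.2 in knockdown and 18.6 in control libraries. SOCS1 and IL2RG were lowest, at 12.6 and 11.9 CPM per kb in knockdown and 13.5 and 13.8 in control libraries. SOCS1 and IL2RG were the only neighbours in this order whose ranges over libraries overlapped, in knockdown and in control alike. With the union of all annotated exons as the length, IL10RA stayed first, at 79.0 CPM per kb in knockdown and 105 in control libraries, but IL13RA1 moved to rank 2, at 67.4 in knockdown and 71.9 in control libraries, ahead of IL10RB and STAT6. By that length STAT3, at 21.7 in knockdown and 20.2 in control libraries, also came before CISH, at 21.0 in knockdown and 19.8 in control libraries, with overlapping ranges in each group. SOCS3, at 18.2 in knockdown and 18.6 in control libraries, came before IL4R, at 14.2 in knockdown and 14.9 in control libraries. The order from rank 2 to rank 8 thus depends on the length used.

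Around these 10 genes, 11 lists held 109 further genes of the pathways, of which 94 were in the table and 82 were tested. In all, 2 were higher and 6 lower past the threshold, beside 163 higher (1.22%) and 216 lower (1.61%) of all genes tested. The median log2 fold change was -0.06 for the 82 genes and 0.00 over all genes. The lists were put together with earlier results of these data known. The count was 3 to 14 with 1 library left out: 3 without knockdown replicate 1, 3 without knockdown replicate 2, 5 without knockdown replicate 3, 3 without control replicate 2, 14 without control replicate 1 and 13 without control replicate 3.

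In 7 of the 11 lists no gene was called, which for so few genes is near the 2.83% of all genes called. None of 3 Janus kinases, 5 other STATs, 5 other SOCS genes, 9 adaptors and STAT6 cofactors, 5 class II cytokine receptors, 5 receptors of the gp130 type and 3 ligands was past the threshold. TYK2, the kinase of IL10RB and IL13RA1, was at 204 ± 5.18 CPM in knockdown and 210 ± 11.9 CPM in controls, with a log2 fold change of -0.04, and that of JAK1 was -0.03. Among the other SOCS genes SOCS4 was the most abundant, at 36.9 CPM in knockdown and 37.0 CPM in controls. SOCS2, which restrains growth hormone signalling, had the lowest log2 fold change of the 82 genes (-0.87 ± 0.35 SE, adjusted p = 0.246), with 8, 8 and 9 counts in knockdown and 12, 13 and 14 counts in control libraries. In CPM neither SOCS2 nor SOCS6 (-0.14, adjusted p = 0.484) overlapped between the groups, with the knockdown libraries below the controls, but neither passed the threshold. GRB2, an adaptor of many receptors, had a log2 fold change of -0.04, and IL6ST, the gp130 chain, of -0.16. IFNGR2, a receptor chain for interferon gamma, was at 540, 535 and 540 CPM in knockdown and at 496, 478 and 472 CPM in control libraries, with an adjusted p of 0.0528. Of the ligands, OSM was the most abundant, at 8.71 ± 0.642 CPM in knockdown and 9.54 ± 1.35 CPM in controls. IL10 itself had 12 to 20 counts in knockdown and 11 to 21 in control libraries, and a log2 fold change of -0.03 ± 0.35 (SE). Its 95% interval ran from -41.5% to 64.7%, so neither the direction nor the size of a change is settled at this depth.

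Of 4 tested receptor chains that pair with IL2RG, or with a chain of that family, 1 was called, beside 2.83% of all genes tested. IL7R, the alpha chain of the receptor for interleukin-7, fell to 125, 115 and 123 CPM in knockdown libraries, against 150, 163 and 151 CPM in control libraries. No knockdown value reached the control range. The log2 fold change was -0.36 ± 0.05 (SE, adjusted p = 0.00107), and IL7R passed in each of the 13 alternative fits, with an adjusted p of at most 0.0212 when 1 library was left out. CRLF2, which joins IL7R in the receptor for the cytokine TSLP, was at 56.1 ± 4.72 CPM in knockdown and 64.4 ± 9.17 CPM in controls (log2 fold change -0.20, adjusted p = 0.298). IL15RA and IL21R were at -0.03 each. TRAC, the only T cell marker measured, was higher where IL7R was lower. It was at 7.16 to 8.02 CPM in knockdown and 4.63 to 5.68 CPM in control libraries. The part of TRAC in the IL7R values was not tested.

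Of 9 phosphatases and PIAS proteins, which restrain STAT signalling, 1 was called, beside 2.83% of all genes tested. PTPN1, a tyrosine phosphatase that acts on Janus kinases, was at 157, 154 and 162 CPM in knockdown and at 129, 139 and 137 CPM in control libraries, with every knockdown library above every control. It rose by 0.22 ± 0.05 on the log2 scale (SE, adjusted p = 0.0197). The call was lost without knockdown replicate 1, 2 or 3 (adjusted p = 0.088, 0.0694 and 0.125) and without control replicate 2 (0.0566). PTPRC, the leukocyte phosphatase CD45 and the most abundant of the list, was at 948 ± 24.9 CPM in knockdown and 954 ± 55.3 CPM in controls. PIAS2 had a log2 fold change of -0.25 that did not pass (adjusted p = 0.119).

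Of 21 tested target genes of IL-4 and STAT6, 5 fell and 0 rose, beside 1.61% lower and 1.22% higher of all genes tested. The list's median was -0.20, against -0.002 over all genes tested. This list too was put together with earlier results of these data known, so its counts are a description only. CCL22 stood at 658 ± 4.48 CPM in knockdown and 1029 ± 120 CPM in controls, and CCL17 at 221 ± 4.61 CPM in knockdown and 315 ± 22.7 CPM in controls. These chemokines, with log2 fold changes of -0.65 and -0.51, passed in each of the 13 alternatives. TGM2, a transglutaminase and the most abundant target measured, fell to 4336, 4226 and 4056 CPM in knockdown, against 4557, 4944 and 4760 CPM in control libraries (log2 fold change -0.18 ± 0.04 SE, adjusted p = 0.0464). TGM2 did not pass with RLE (0.0502) or upper-quartile scaling (0.0584), without knockdown replicate 1, 2 or 3 (0.115, 0.16 and 0.262) or without control replicate 2 (0.244). The remaining calls, the fatty-acid-binding protein FABP4 (-0.37) and the chemokine CCL26 (-0.79), were also lost under some alternatives. FABP4 had an adjusted p of 0.103 in DESeq2, of 0.0659, 0.0849 and 0.11 without knockdown replicate 1, 2 or 3, and of 0.06 without control replicate 2. That of CCL26 was 0.0928 and 0.159 without knockdown replicates 1 and 2 and 0.156 without control replicate 2. Targets with positive values included CD209, a lectin, at 367 ± 4.43 CPM in knockdown and 324 ± 24.1 CPM in controls (log2 fold change 0.18, adjusted p = 0.0792), and FCER2, the low-affinity receptor for IgE (0.34, adjusted p = 0.0853). Mitochondrially encoded mRNA, a sign of RNA quality, also had a median below 0 (-0.16 over 13 genes, 1 of them called). Its part in the values of the target genes was not tested.

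Of 13 tested target genes of IL-10 and STAT3, 1 rose and 0 fell, beside 1.22% higher and 1.61% lower of all genes tested. The list's median was -0.07. CD163, the haemoglobin scavenger receptor, was at 47.1, 49.5 and 42.6 CPM in knockdown and 39.1, 34.8 and 31.8 CPM in control libraries (log2 fold change 0.40 ± 0.08 SE, adjusted p = 0.0127). It did not pass without knockdown replicates 1 or 2 (0.0535 and 0.119) or control replicate 2 (0.0796). DDIT4, an inhibitor of the kinase complex mTORC1, had a positive value (0.25, adjusted p = 0.0521). So did MERTK, a receptor for apoptotic cells (0.19, adjusted p = 0.0895). ETV3, a transcriptional repressor (-0.16, adjusted p = 0.0792), and FCGR1A (-0.50, adjusted p = 0.0754) had negative ones. In the whole list 4 genes lay above 0 and 9 below, beside 6624 above and 6781 below over all genes tested. IL1RN, the interleukin-1 receptor antagonist and the most abundant of the list, was at 470 ± 4.09 CPM in knockdown and 482 ± 17.5 CPM in controls. SBNO2 and BCL3, which act on inflammatory genes behind IL-10, had log2 fold changes of 0.08 and -0.07.

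**Figure D4:**
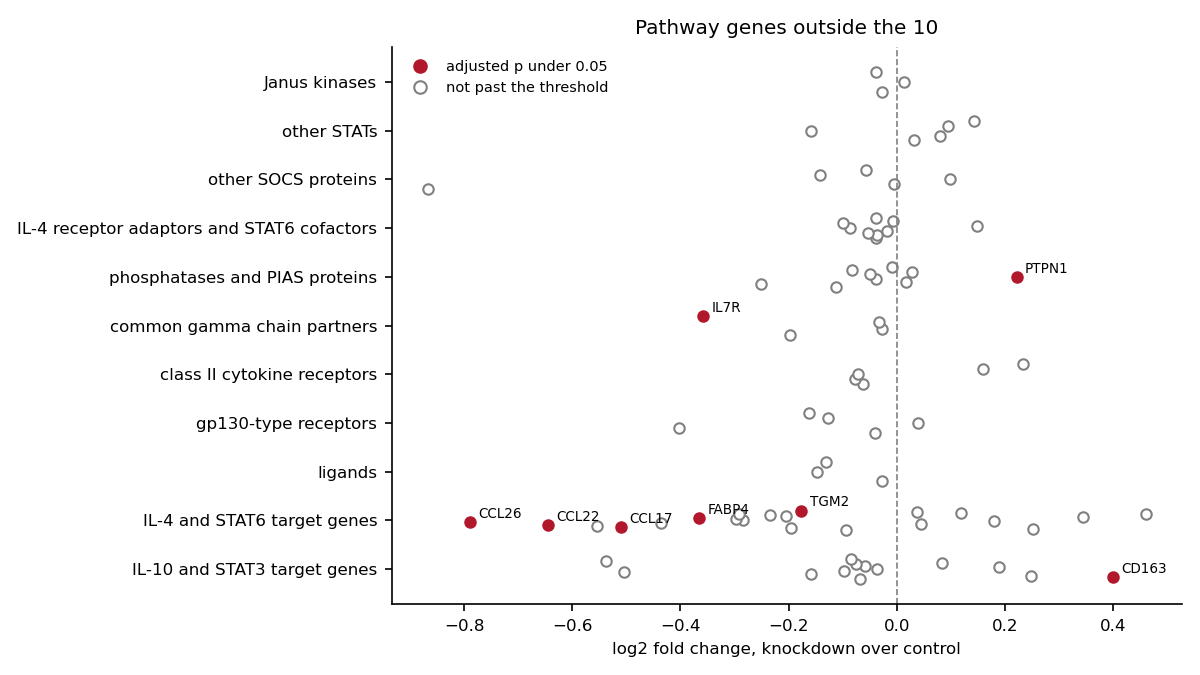
Log2 fold change, knockdown over control (horizontal axis), of the 82 tested pathway genes outside the 10, by list (rows); filled red points passed an adjusted p of 0.05 over all genes and are named, open points did not. The 2 higher calls are PTPN1 and CD163, and the 6 lower calls are IL7R, CCL17, CCL22, CCL26, TGM2 and FABP4.

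The genes whose profile over the 6 libraries was nearest to that of IL10RA were sought among 8839 tested genes with a mean of at least 10 CPM, by the root-mean-square difference between log2 CPM values after each gene's mean was removed. The nearest 5 were MAPKAPK3 (0.03), PTPRJ, a receptor-type phosphatase (0.034), SELPLG, the P-selectin ligand (0.034), RMND5A, a subunit of a ubiquitin ligase (0.035), and SLC16A1, a lactate transporter (0.046). MAPKAPK3 was at 128, 137 and 129 CPM in knockdown and at 171, 179 and 182 CPM in control libraries. SELPLG was at 28.4, 28.6 and 27.1 CPM in knockdown and at 36.3, 39.9 and 39.4 CPM in control libraries. All 5 lie below their controls in every knockdown library, as does IL10RA, whose profile picked them. Of the 9 other genes of the list IL2RG came nearest, at rank 738 with a difference of 0.151, and STAT3 came last, at rank 6876 with 0.262. IL10RB had rank 6366.

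**Figure D5:**
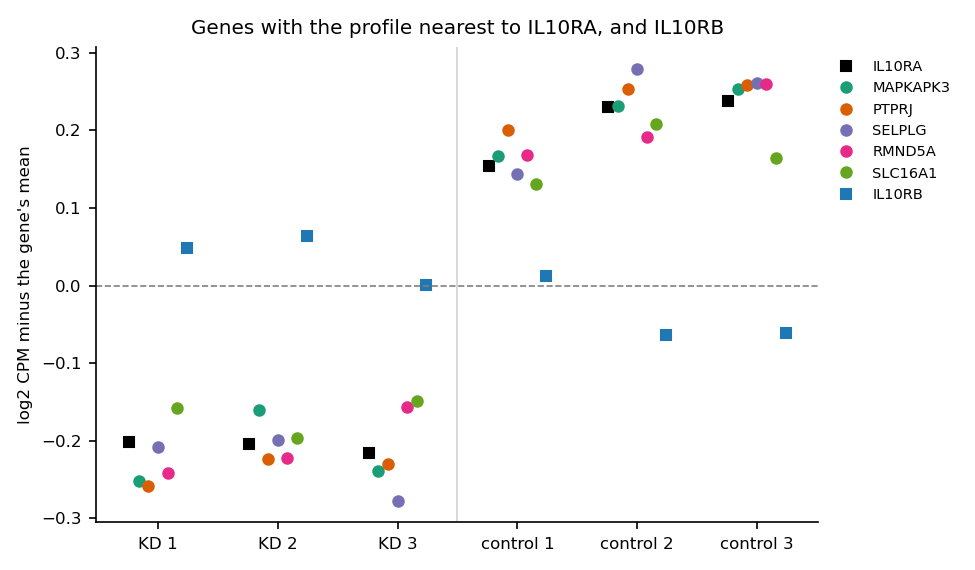
Log2 CPM minus the gene's own mean over 6 libraries (vertical axis) in each knockdown and control library, for IL10RA (black squares), the 5 genes nearest to it (circles) and IL10RB (blue squares). IL10RA and the 5 genes lie below 0 in each knockdown library and above 0 in each control library, while IL10RB does not.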

How the data were processed

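The submitters' processing notes name Salmon (0.11.2), the build hg38 and DESeq2 without roles. Values deposited by the authors were treated here as estimated counts (the expected counts of Salmon's type), 1 row a gene symbol, already whole; their rounding and any use of strand are not stated in any source read. The members and lists were chosen with earlier results of these data known.

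The main test was the two-sided quasi-likelihood F test of edgeR 4.0.16, with TMM factors, the filterByExpr filter and a model of group alone; p-values were adjusted by Benjamini-Hochberg over 13405 genes (threshold 0.05). CPM values use the TMM factors. The SE is the log2 fold change divided by the square root of F, and intervals are 95% intervals from the same fit. The test was checked on simulated data, where the share of false calls was somewhat above the nominal one. Alternatives were RLE and upper-quartile scaling, no filter, at least 1 CPM in 3 libraries, DESeq2 1.42.0, limma-voom 3.58.1, a replicate block and leaving out each library. Lengths and overlaps came from GENCODE 29 and promoters from RefSeq. Union-exon lengths and the ratio without each library were added after seeing the data. Adjusted p-values that DESeq2 left as NA (CCL26) were not counted. Named were all 10 genes, each pathway gene called (at most 12), the most abundant of each list (1 is not reported here) and the 5 genes nearest to IL10RA; others named were chosen after their values were seen. Replicates were not duplicates (chi-square per degree of freedom 1.90 to 2.28 between knockdown libraries and 2.79 to 6.79 between control libraries).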

Additional observations from a re-analysis of the deposited data

How the results depend on the processing

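The log2 fold change of IL10RA ran from -0.44 to -0.40 over the 13 alternatives, and the difference in the log2 ratio of IL10RA to IL10RB from -0.54 to -0.46 with 1 library left out. The count of 0 calls among the other 9 genes held in all 13, with a smallest adjusted p of 0.131 (STAT3), and each of the 9 but SOCS3 kept its direction. SOCS3 ran from -0.11 to 0.05 with 1 library left out (0.046 without control replicate 2). With 1 library left out, the count of all genes called ran from 139 to 542 and that of pathway genes from 3 to 14; the cause was not tested. The other settings kept these counts within 1.5 times. Same-numbered libraries deviated together little (correlations of 0.0448, 0.0756 and 0.0782 across genes, though each library was nearest to its own number), so the numbers were not taken to pair them; with a replicate block 488 genes, 10 pathway genes and 0 of the 9 were called. Depth limits the precision for genes with few counts, such as SOCS2 and IL10, and JAK3 was too low to test.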
